A study of Sus scrofa with 8 samples.

Results

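Respiratory complexes II and III were examined in pig (Sus scrofa) skeletal muscle through the spots whose only annotated gene symbol was one of 10 nuclear genes. These were SDHA, SDHB, SDHC and SDHD for complex II, and UQCRC1, UQCRC2, UQCRFS1, UQCRH, UQCRB and CYC1 for complex III. Of the 10 genes 8 had a spot, with 22 spots in all among the 9984 of the array and the 2922 genes named on it. SDHB, the iron-sulfur subunit of complex II, and UQCRFS1, the Rieske iron-sulfur subunit of complex III, had no spot under this rule and are left out below.

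The study asked how diets alter pig muscle. It set muscle RNA of animals on a high energy diet against that of animals on a low energy diet, on 8 arrays with 2 colours. The sample names give 4 couples of 1 high energy and 1 low energy sample, called couples 1 to 4 here: samples 40 and 49, 41 and 61, 40 again and 142, and ae and be. Each couple was hybridised once with the high energy sample in dye 5 and once in dye 3. The swapped arrays carry the same pair of RNAs and together count as 1 replicate (n = 4 couples, with sample 40 in both couples 1 and 3). Breed, age, sex, the muscle taken, the diets' make-up and their duration are not in the labels, nor whether a sample is 1 animal or a pool. The p-values below rest on the differences among these 4 couples, part of which may be technical. In whole muscle RNA, fewer cells of a type and less RNA per cell cannot be told apart.

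Complexes II and III are neighbouring steps of the mitochondrial respiratory chain. Complex II, succinate dehydrogenase, is also an enzyme of the citrate cycle: it oxidises succinate to fumarate and passes the electrons to ubiquinone in the inner membrane. Complex III takes electrons from reduced ubiquinone, hands them to cytochrome c and pumps protons. Fibres that rely on oxidation, mostly slow ones, are rich in both complexes, and succinate dehydrogenase staining is a classical way to tell oxidative from glycolytic fibres in a muscle section.

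The deposited values are log2 ratios between the channels of an array, and each array was centred on its median before use. High over low energy is the likely direction, since the labels place low energy in channel 1 and high energy in channel 2 and the design text calls low energy the reference. The direction is not stated outright. Fitted ratios and list medians are therefore given with their turned value, obtained when ratios from arrays carrying the high energy sample in dye 3 change sign. Signs, shares and correlations of single arrays, spots and couples are for the likely direction unless called turned. Values were present for 77.6% to 94.4% of spots per array, and their SD on an array ran from 0.341 to 0.724 log2 units. The platform's probes carry human accessions, and pig transcripts may bind them unequally. All levels below are ratios, so the genes cannot be ranked by abundance.

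None of the 5 complex II and III genes that could be tested passed the test for a difference between the diets. A gene was tested where both dye orientations were present in at least 3 couples. SDHA, UQCRC1, UQCRC2, UQCRH and UQCRB met this, and SDHC, SDHD and CYC1 did not. In limma's test 0 of these 5 genes passed a Benjamini-Hochberg threshold of 0.05, against 0 of all 5025 features (0%). At an unadjusted p under 0.05 there were 0 of the 5 genes, against 190 of 5025 features (3.78%). The adjusted p was 0.996 for each of the 5 genes. Their fitted log2 ratios lay between -0.077 and 0.10, and their 95% intervals together reached from -0.34 to 0.31. On the linear scale the outermost bounds were 0.792-fold and 1.24-fold.

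**Figure D1:**
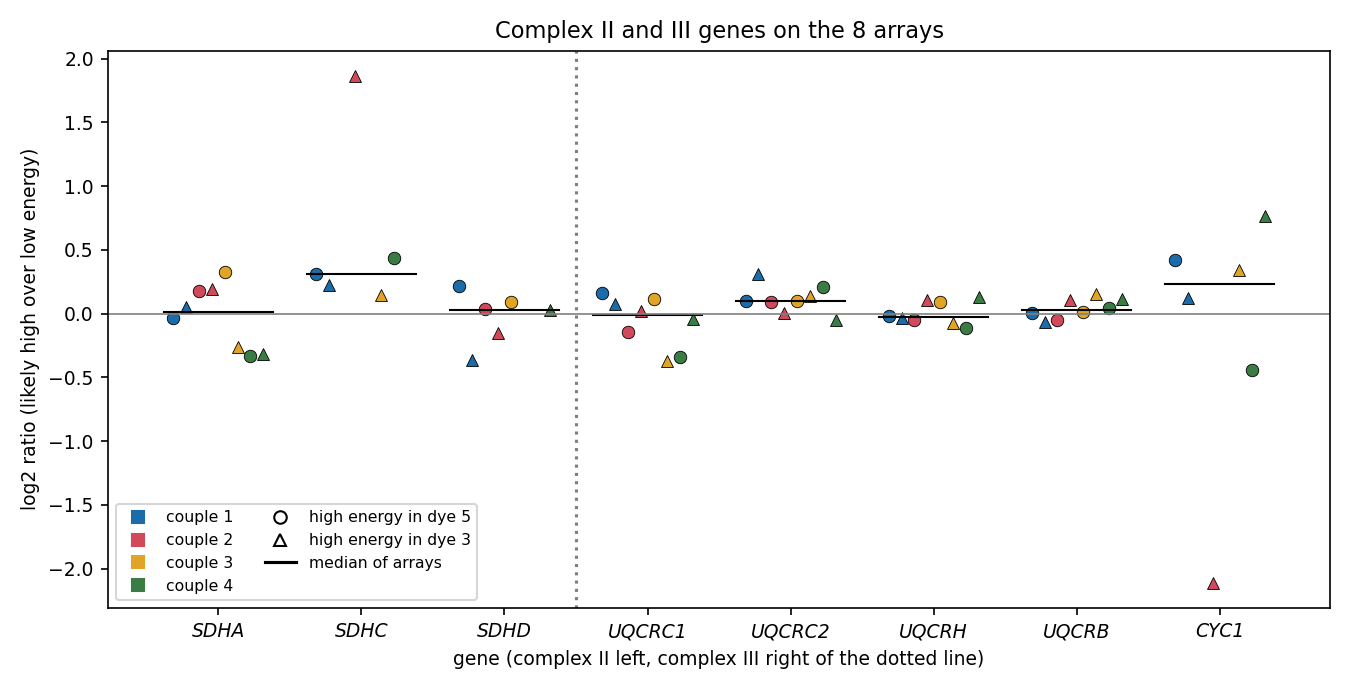
Log2 ratio (likely high over low energy, vertical axis) of the 8 genes on each array, with colour for the couple, circles for high energy in dye 5, triangles for high energy in dye 3 and a bar at the median of the arrays measured. UQCRH and UQCRB range from -0.11 to 0.15 over the 8 arrays, while SDHC at 1.86 and CYC1 at -2.11 each have 1 far value, both on the couple 2 array with high energy in dye 3.

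In complex II, SDHA encodes the flavoprotein that carries the FAD cofactor and oxidises succinate. It had log2 ratios of 0.0091, 0.19, 0.034 and -0.32 in couples 1 to 4, with an SD of 0.21. Couple 4 stood below the other couples, and both of its arrays were low, at -0.33 and -0.32. The arrays of couple 3 had opposite signs, 0.33 with high energy in dye 5 and -0.26 in dye 3. Over the 8 arrays, 4 values were above 0 and 4 below. The fitted ratio was -0.033 ± 0.12 (limma SE, n = 4; 95% interval -0.33 to 0.26; turned 0.046). Without couple 4 it was 0.092, and with high energy in dye 5 alone 0.013, so the sign of the SDHA ratio changed with these choices.

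SDHA had 4 spots at a pair of separate places on the array. The first place averaged -0.021 ± 0.27 over the couples and the second -0.026 ± 0.20 (SD, n = 4). Both places were above 0 in couple 2 and below 0 in couple 4: couple 2 had 0.23 and 0.15, and couple 4 had -0.39 and -0.26. In couples 1 and 3 the places had opposite signs. On single arrays they had the same sign on 6 of 8, with a median difference of 0.266.

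SDHC and SDHD encode the membrane anchors of complex II, which hold the haem group and form the ubiquinone site with SDHB. SDHC had values on 5 arrays and both orientations in couple 1 only, with 0.31 and 0.22 there, a mean of 0.27 (turned 0.041). Its other arrays gave 1.86 in couple 2 and 0.15 in couple 3, both with high energy in dye 3, and 0.44 in couple 4 with high energy in dye 5. All 5 values were above 0, yet 3 couples lack the swapped array and no test was made. The value of 1.86 came from a single spot. Between 85.7% and 97.1% of the values other than 0 on an array matched the base 2 logarithm of a ratio of whole numbers whose lesser was under 5000, to within 0.6 of the last decimal, usually the ninth. Read as natural logarithms the same values matched in 2.52% to 4.14%, and in base 10 in 8.44% to 14.8%. The larger of these numbers after cancelling common factors is called the recovered signal. Where the channel signals were whole numbers, it bounds the brightness of a spot from below. For that SDHC spot it was 11, against a median of 277 over the 8 SDHC spot values. As a lower bound, it does not show whether the spot was dim.

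SDHD had values on 6 arrays and both orientations in couples 1 and 2, where the couple means were -0.073 and -0.059. The 3 arrays with high energy in dye 5 had 0.22, 0.033 and 0.091, all above 0. With high energy in dye 3 the values were -0.36, -0.15 and 0.027. When 2 couples sufficed, SDHD had a fitted ratio of -0.066 ± 0.13 (95% interval -0.46 to 0.32; turned 0.19) and an adjusted p of 0.996 in limma over 5814 features. Its 2 neighbouring spots had the same sign on 2 of 6 arrays. One spot averaged 0.13 and the other -0.26 over the couples measured.

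In complex III, UQCRC1 and UQCRC2 encode the core proteins on the matrix side, which are related to mitochondrial processing peptidases. UQCRC2 was the only one of the 5 tested genes above 0 in all 4 couples, with 0.20, 0.045, 0.12 and 0.079. Their plain mean of 0.11 exceeded their SD of 0.068. Of all features measured in 4 couples, 7.47% were above 0 in all of them. Turned, UQCRC2 had -0.10, 0.043, -0.020 and 0.13, above 0 in 2 of 4 couples. UQCRC2 was above 0 on 7 of 8 arrays, from -0.048 in couple 4 with high energy in dye 3 to 0.31 in couple 1 with high energy in dye 3. The fitted ratio was 0.10 ± 0.084 (95% interval -0.11 to 0.31; turned 0.026). In the 14 alternative settings that gave it a value, it stayed above 0, between 0.026 and 0.13, and passed in 0 of them. Some of these settings alter only which features are tested and cannot change the ratio. The 2 neighbouring UQCRC2 spots had the same sign on 4 of 8 arrays, with a correlation of -0.239.

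UQCRC1 had 0.12, -0.061, -0.13 and -0.19 in couples 1 to 4, with an SD of 0.13. Couple 1 was above 0 and the others below. The fitted ratio was -0.077 ± 0.10 (95% interval -0.34 to 0.18; turned -0.011). It stayed below 0 in the 14 alternative settings that gave it a value, between -0.13 and -0.011, though some of these settings cannot change the ratio. No tested gene of the complexes was below 0 in all 4 couples, against 9.12% of features. Turned, 0 of the 5 genes were on one side of 0 in all 4 couples, against 6.65% of features above and 8.08% below.

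The UQCRC1 ratio averaged 2 places that mostly differed in sign. Spots 781 and 782 had couple means of 0.30, 0.26, -0.63 and -0.12. Spots 4555 and 4556 had -0.061, -0.38, 0.38 and -0.26. The places had the same sign on 1 of 8 arrays. Their correlation over the 8 arrays was -0.633, and the median difference was 0.487. Both places carry the same accession in the platform annotation. The small gene mean in couples 2 and 3 is the average of larger values of opposite sign at each place.

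**Figure D2:**
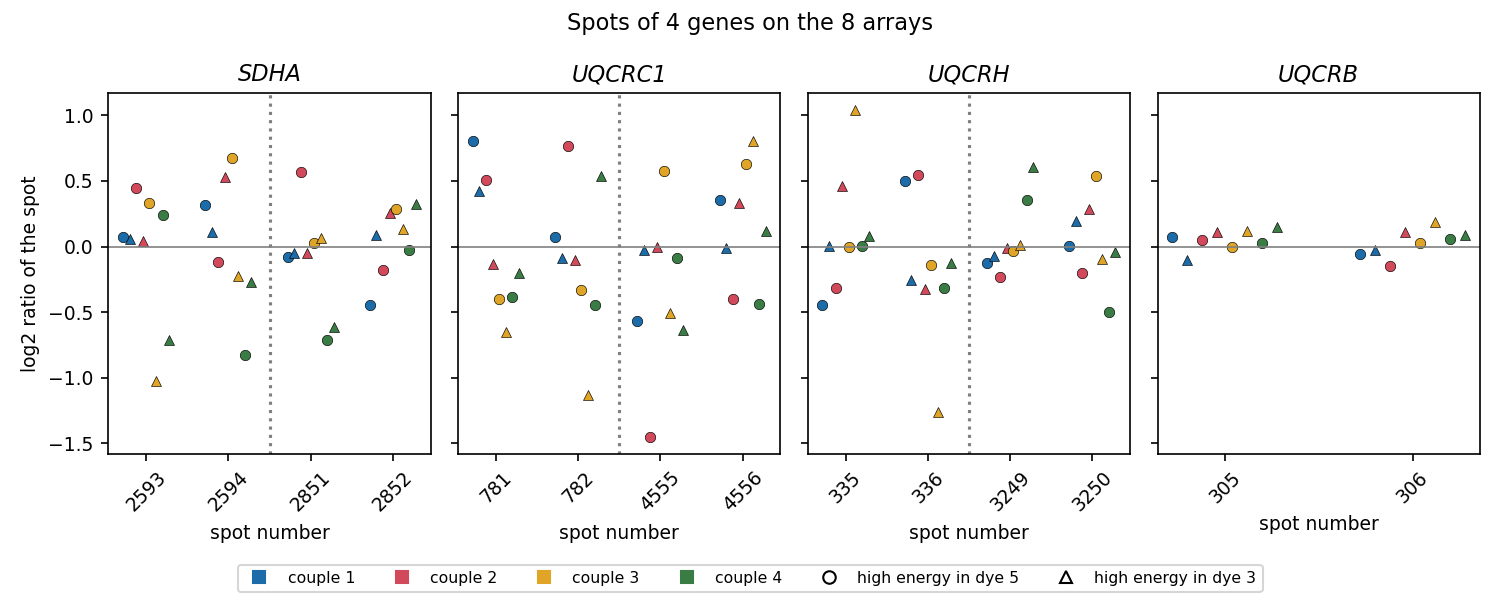
Log2 ratio of each spot (vertical axis) by spot number for SDHA, UQCRC1, UQCRH and UQCRB, with colours and symbols for couple and dye orientation and a dotted line between the places of a gene. Spots of UQCRB lie between -0.145 and 0.186, whereas those of UQCRC1 reach from -1.45 to 0.806 and those of UQCRH from -1.26 to 1.04.

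CYC1 encodes cytochrome c1, whose haem passes electrons on to cytochrome c. It had values on 6 arrays and both orientations in couples 1 and 4, with couple means of 0.27 and 0.16. The couple 4 arrays had -0.44 with high energy in dye 5 and 0.76 in dye 3. The remaining arrays, both with high energy in dye 3, gave -2.11 in couple 2 and 0.34 in couple 3. The values spanned 2.87 log2 units, the widest range of the 8 genes. When 2 couples sufficed, the fitted ratio was 0.22 ± 0.14 (95% interval -0.18 to 0.62; turned -0.23) with an adjusted p of 0.996 in limma. The neighbouring CYC1 spots were both measured on 2 arrays only, and had opposite signs on both.

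UQCRH encodes the hinge protein, an acidic subunit that helps cytochrome c1 meet cytochrome c. Its gene ratio was close to 0 in every couple, at -0.024, 0.027, 0.0061 and 0.0070, with an SD of 0.021. The fitted ratio was 0.0067 ± 0.079 (95% interval -0.19 to 0.21; turned -0.042). Without couple 2 it was -0.0020. Of all tested features, 3.98% had a ratio of smaller size.

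The single UQCRH spots were far more variable than their mean. Neighbouring spots had the same sign in 2 of 16 comparisons, against 56.1% for all named neighbouring pairs. Spots 335 and 336 had a correlation of -0.944 over the 8 arrays. The widest gap was in couple 3 with high energy in dye 3, where they had 1.04 and -1.26. In couple 1 with high energy in dye 5 they had -0.44 and 0.50. The gene mean near 0 therefore came partly from spots of opposite sign. With the median over spots in place of the mean the fitted ratio was -0.048.

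UQCRB encodes a small subunit that faces the matrix and borders a ubiquinone site. It had -0.029, 0.032, 0.084 and 0.081 in couples 1 to 4, with an SD of 0.053, and was above 0 on 6 of 8 arrays. With high energy in dye 3 the array values were -0.064, 0.11, 0.15 and 0.12, and with high energy in dye 5 they were 0.0056, -0.046, 0.014 and 0.044. The fitted ratio was 0.045 ± 0.084 (95% interval -0.16 to 0.25), and turned it was -0.041. The UQCRB spots had the smallest differences between neighbours of the 8 genes. Their median difference between neighbours was 0.0618, against 0.274 for all named pairs, and the SD of the 16 spot values was 0.0904. They had the same sign on 5 of 8 arrays with a correlation of 0.462, against 6 of 8 and 0.637 for UQCRC1 spots 781 and 782. The 9 recovered signals of UQCRB had a median of 1807, the highest of the 8 genes. For the other 7 of its 16 values no ratio of small whole numbers was found. These are counted as bright but are not in that median. For the other 7 genes the median recovered signal was between 235.5 and 747.5.

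**Figure D3:**
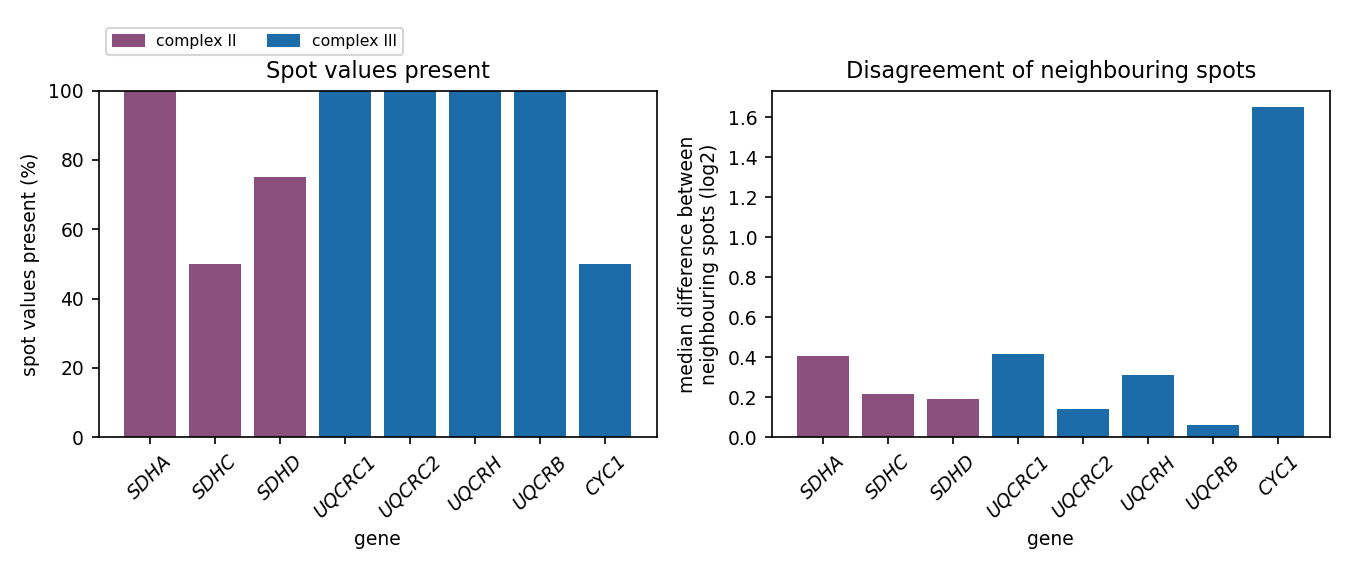
Share of spot values present (left, percent of spots times 8 arrays) and median absolute difference between neighbouring spots (right, log2 units) for the complex II genes and the complex III genes. SDHC and CYC1 had 8 of 16 values and SDHD 12 of 16, while the other genes were complete, and the CYC1 difference of 1.65 rests on 2 comparisons against 0.0618 for UQCRB.

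Over the 8 genes 156 of 176 possible spot values were present, and 85 of them were above 0 and 71 below. All 20 absent values belonged to SDHC, SDHD and CYC1. Why a value is absent is not stated in the sources. Of the 5 genes measured on every array, 0 were above 0 on all 8 arrays, against 0.797% of features. Likewise 0 were below 0 on all 8, against 1.46%. The arrays of a couple differed by a median of 0.156 for the 8 genes, against 0.261 for features on all arrays. The 8 genes had 2 or 4 spots each, averaged where present, whereas features without a symbol are single spots. The medians are therefore not like for like.

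Complex II was set beside complex III by averaging the measured genes of each within a couple. Complex II had means of 0.067, 0.064, 0.034 and -0.32 in couples 1 to 4, which gives -0.040 ± 0.19 (SD, n = 4; turned 0.11). Complex III had 0.11, 0.011, 0.021 and 0.027, which gives 0.042 ± 0.045 (turned -0.030). Complex III was above 0 in every couple, and complex II in all but couple 4. In couple 4 the sign of the complex III mean depended on CYC1 at 0.16, whose arrays there had -0.44 and 0.76. The other genes in that couple were UQCRC1 at -0.19, UQCRC2 at 0.079, UQCRH at 0.0070 and UQCRB at 0.081. The difference of complex II minus complex III was -0.041, 0.053, 0.013 and -0.35, with a mean of -0.081 ± 0.18, smaller than its own SD. Without couple 4 it was 0.0083. Turned, the difference was 0.070, 0.090, 0.24 and 0.15, with a mean of 0.14 ± 0.074 and the opposite sign. Turned, complex III was above 0 in couples 1 and 3 only, at 0.026, -0.049, 0.059 and -0.16. The complex II mean holds SDHA, SDHC and SDHD in couple 1, SDHA and SDHD in couple 2 and SDHA alone in couples 3 and 4. The complex III mean holds 5 genes in couples 1 and 4, where CYC1 had 0.27 and 0.16. In couples 2 and 3 it holds the other 4 genes, without CYC1. From genes with a value on all 8 arrays alone, which leaves CYC1 out, complex III had 0.023 and complex II -0.024. Within single arrays the difference ran from -0.33 in couple 4 to 1.01 in couple 2, both with high energy in dye 3. That couple 2 array holds the far values of SDHC and CYC1.

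Correlations between the genes over the arrays had both signs. Among the 5 genes measured on all 8 arrays, the 6 pairs within complex III had a median correlation of -0.289, from -0.719 for UQCRC2 with UQCRH to 0.606 for UQCRC1 with UQCRH. The 4 pairs of SDHA with a complex III gene had a median of 0.159, the highest being 0.625 with UQCRC1. Over all pairs of the 1928 genes on 8 arrays the median was 0.0044. These values describe 8 arrays that share samples and dyes in pairs.

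No other complex III subunit on the array passed either. UQCR10 had a fitted ratio of 0.15 ± 0.11 (turned 0.082) and UQCRQ -0.13 ± 0.17 (turned 0.0041), both small subunits of the complex. UQCR11, a further small subunit, had -0.076 ± 0.12 (turned -0.029), and CYCS, cytochrome c itself, had 0.065 ± 0.11 (turned -0.038) in 3 couples. Together 2 of these 4 genes were above 0 and 2 below, and 0 passed. UQCR11 and CYCS were named in addition to the genes chosen by rule, to complete the complex.

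**Figure D4:**
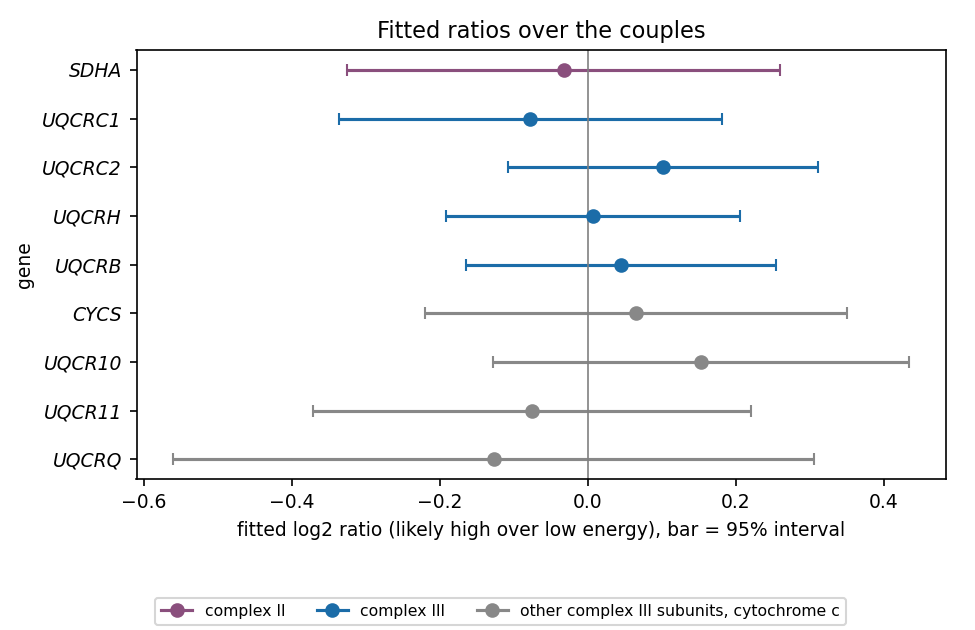
Fitted log2 ratio (horizontal axis, likely high over low energy) with its 95% interval from limma for the 5 tested genes of complexes II and III, and for the other complex III subunits and cytochrome c. Every interval includes 0, and the widest is that of UQCRQ, from -0.56 to 0.31.

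Assembly and ubiquinone genes were sparsely covered. Of 11 assembly factors 3 were tested, with 1 above 0 and 2 below. SDHAF2, which attaches FAD to SDHA, had -0.19 ± 0.14 in 3 couples (turned 0.083), and UQCC2, an assembly factor of complex III, had 0.10 ± 0.13 (turned 0.14). Of 13 ubiquinone synthesis genes 3 were tested, with COQ8A at -0.11 ± 0.096 (turned -0.086) and COQ6 at 0.091 ± 0.17 (turned -0.026). Of the other enzymes and carriers on routes that feed electrons to ubiquinone 2 were tested. SQOR, which oxidises sulfide, had -0.14 ± 0.15 (turned -0.19), and ETFB, part of the carrier that serves fatty acid oxidation, had 0.079 ± 0.12 (turned -0.094), each in 3 couples.

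Around complexes II and III, 0 genes of the other respiratory complexes or of the citrate cycle passed the adjusted threshold, and 0 had an unadjusted p under 0.05. The shares below 0 were 18 of 29 for complex I (median -0.026), 7 of 10 for complex IV (median -0.033) and 9 of 14 for ATP synthase (median -0.022). Turned, they were 16 of 29 (median -0.0063), 5 of 10 (median -0.0029) and 5 of 14 (median 0.018). Of all tested features 53.6% were below 0 (median -0.012), and turned 52.6% (median -0.0085). In complex I, NDUFB9 had 0.21 ± 0.091 (turned 0.065) and NDUFAB1 -0.31 ± 0.14 (turned 0.22). In complex IV, COX6C had 0.17 ± 0.10 (turned -0.014) and the muscle isoform COX7A1 -0.14 ± 0.13 (turned 0.055). In ATP synthase, ATP5F1B had -0.17 ± 0.098 (turned -0.013) and ATP5MC1 -0.17 ± 0.12 (turned 0.076). Citrate cycle enzymes, the pathway that complex II shares, were above 0 for 6 of 7 genes (median 0.066) and turned for 1 of 7 (median -0.049). CS, citrate synthase, had 0.27 ± 0.14 (turned -0.019), and IDH3G, a subunit of isocitrate dehydrogenase, had 0.19 ± 0.098 (turned -0.032). ESRRA, a nuclear receptor that drives mitochondrial genes, was the only regulator measured and had 0.030 ± 0.080 (turned 0.0052).

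Fibre and cell type markers were read beside these ratios. Slow fibre markers were below 0 for 11 of 11 genes (median -0.14) and turned for 4 of 11 (median 0.0016). The smallest p-values were those of MYBPC1 at -0.31 ± 0.091 (turned 0.024) and myoglobin, MB, at -0.32 ± 0.10 (turned 0.22). Fast fibre markers were above 0 for 6 of 10 genes (median 0.062) and turned for 5 of 10 (median 0.00038). The smallest p-values were those of MYL1 at 0.37 ± 0.10 (turned -0.036) and TPM1 at 0.24 ± 0.11 (turned 0.037). The fast myosins MYH1 at -0.17 ± 0.11 (turned 0.060) and MYH2 at -0.087 ± 0.096 (turned 0.095) were among the 4 below 0, and are named here after their values were seen. At an unadjusted p under 0.05 there were 3 of 11 slow markers, MYBPC1, MB and TNNT1, and 1 of 10 fast markers, MYL1, against 3.78% of features. Turned, there were 1 of 11 and 0 of 10. In couples 1 to 4 the slow marker median was -0.072, -0.13, -0.077 and -0.18, and turned 0.023, 0.018, -0.084 and 0.13. Turned, SDHA had -0.043, -0.0082, 0.29 and -0.0072. Of the markers of blood and vessels 3 of 5 were above 0 (median 0.022) and turned 5 of 5 (median 0.10), with EMCN at 0.25 ± 0.12 (turned 0.15) and AHSP at -0.27 ± 0.16 (turned 0.17). Of fat and fibroblast markers 2 of 4 were above 0 (median -0.034) and turned 2 of 4 (median -0.049), with COL1A2 at 0.23 ± 0.11 (turned -0.31) and DCN at -0.20 ± 0.13 (turned 0.044). Both immune markers were below 0, C1QA at -0.34 ± 0.16 (turned -0.096) and CD74 at -0.018 ± 0.080 (turned 0.038). Of all these markers 0 passed the adjusted threshold. The part of fibre type or cell make-up in the ratios of complexes II and III was not tested.

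Of 1923 other genes on all 8 arrays, NPRL2, HSP90AA1 and PAGR1 had the highest correlation with the complex II mean, at 0.854, 0.848 and 0.847. Without the 2 arrays farthest from the median, over 6 arrays, these were 0.942, 0.654 and 0.511. For the complex III mean the highest were HSP90AB1 at 0.952, IGFBP7 at 0.9 and PTMS at 0.898, and 0.805, 0.701 and 0.679 over 6 arrays. These genes were picked as the highest of 1923 for each mean over 8 arrays, and no test was made. Over all pairs of the 1928 genes on 8 arrays, the highest correlation was 0.996. The complex III mean was lowest, at -0.37, on the array with the CYC1 value of -2.11.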

How the data were processed

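Pig muscle cDNA was compared on 8 arrays with 2 colours, in 4 dye-swapped couples. The deposited values are log2 ratios per spot, with array medians between -0.0071 and 0.011. How the authors corrected, filtered and normalized them is not given in the sources. The base was read from the values: 6.59% to 19.2% per array matched base 2 logarithms of fractions whose denominator was at most 60, against at most 0.396% in base 10 and 0% in base e. Arrays were centred on their medians, spots with the same single symbol were averaged (6296 features), and the arrays of a couple were averaged. Symbols come from the platform annotation, and 9 of the 10 gene symbols occur in the pig tables. A feature needed both orientations in at least 3 couples. The mean was tested against 0, two-sided, by lmFit and eBayes of limma 3.58.1 in R 4.3.3, with couples of a shared high energy sample given a correlation of 0.5 and Benjamini-Hochberg adjustment over all 5025 features. This gives couples 1 and 3 less weight each, so a fitted ratio can differ from the plain mean of the couples. The code was tested on simulated data. Every one of the genes with a spot is named; from each other list the 2 genes with the smallest p, and for each complex the 3 genes most correlated with its mean. The genes and lists were chosen with earlier results of these data known. With 4 couples the number of arrays limits the precision.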

Additional observations from a re-analysis of the deposited data

Results flagged for a closer look

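Of 16 sets of at least 4 values, 3 held a value set apart from the rest by more than the 95% critical value of Dixon's test, where chance flags about 1 in 20. SDHC on the couple 2 array with high energy in dye 3 was 1.86, with the other 4 arrays between 0.15 and 0.44. The complex II mean of couple 4 was -0.32, with the other couples between 0.034 and 0.067, and in that couple it consists of SDHA alone. The complex III mean of couple 1 was 0.11, with the others between 0.011 and 0.027. It includes CYC1 at 0.27, which is absent from the means of couples 2 and 3. Of the 5 genes measured on all arrays, 0 had opposite signs in the 2 dye orientations throughout.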

How the results depend on the processing

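Under 16 alternative settings, the count of features past the threshold stayed at 0, and so did that of complex II and III genes. At an unadjusted p under 0.05 the 190 of 5025 features became 310 with couples taken as independent and 353 with all 8 arrays fitted. Both of these fits also tested 5025 features. With high energy in dye 5 alone there were 108 of 5687. There were 99 of 3716 without couple 2 and 100 of 4195 without couple 4, smaller shares than in the main fit. With a log2 recovered signal of 9 or more there were 106 of 1472, a larger share than in the main fit. The complex II mean of -0.040 became 0.11 turned, 0.13 with high energy in dye 5 alone, 0.10 in dye 3 alone, 0.055 without couple 4 and -0.12 at that signal, each a move of less than the SD of 0.19 over couples. The complex III mean of 0.042 became -0.030 turned, -0.018 with high energy in dye 3 alone and -0.035 at that signal. Complex II minus complex III, -0.081, became 0.14 turned, 0.12 with high energy in dye 5 alone and 0.12 in dye 3 alone. Both orientations alone also hold arrays without a swapped partner, and that in dye 3 holds the far values of SDHC and CYC1. Of 72 ratios of single genes 63 kept their sign, but not all of these could change. Asking for a value on all 8 arrays, or for both orientations in at least 2 couples, altered only which features were tested. Both returned the main ratio of every gene. Couples taken as independent and all 8 arrays fitted gave the same ratio as each other. SDHA turned positive at 0.046 turned, 0.013 with high energy in dye 5 alone and, without 1 couple, ranged from -0.13 to 0.092. UQCRH was -0.042 turned, -0.035 with high energy in dye 5 alone, -0.048 with the median over spots, -0.045 at that signal and, without 1 couple, -0.0020 to 0.013. UQCRB was -0.041 turned. The causes were not tested.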

Other observations

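Repeat spots agreed little across the array as a whole. Over the 1653 named neighbouring pairs with values on all 8 arrays, the median correlation of a pair over the arrays was 0.198, and 36.2% of pairs were below 0. In 563 pairs the first spot had a median log2 recovered signal of at least 11, counting values without a recovered signal as bright. These pairs had a median correlation of 0.295 and a median difference of 0.123. The other 1090 had 0.148 and 0.308. Of the 8 complex II and III pairs measured on all arrays, 4 were below 0, those of UQCRH at -0.944 and -0.332, one of SDHA at -0.275 and that of UQCRC2 at -0.239.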
